A study of Mus musculus with 24 samples.

Results

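The IL-6 family cytokines Il6, Lif and Osm and the receptor genes Il6ra, Il6st and Osmr were followed in cultured macrophages of 4 mouse strains. The members were the probe sets to which the array's gene table gives one of these 6 symbols and no other, 13 of 45033 probe sets with values, for 6 of 18193 genes that have a probe set of their own. Of these, 4 belonged to the ligands (1 for Il6, 2 for Lif, 1 for Osm) and 9 to the receptors (2 for Il6ra, 4 for Il6st, 3 for Osmr). No probe set was removed by a filter.

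All cells came from male mice without a working Il10 gene (Il10-/-), so every group, controls included, lacks this anti-inflammatory cytokine. CB-R1 (labelled C3Bir.B6-Cdcs1 Il10-/-) has the C3Bir background with a long piece of chromosome 3 from B6 that contains Cdcs1, a colitis susceptibility locus, and is colitis-resistant. C3Bir (C3H/HeJBir-Il10tm1Cgn) is the colitis-susceptible parent. BC-R3 (B6.C3Bir-Cdcs1 Il10-/-) is the reverse, B6 with a C3Bir piece at Cdcs1. B6 (C57BL/6J-Il10tm1Cgn) is the colitis-resistant parent. Bone marrow-derived macrophages, grown from marrow cells for 6 days, received 1 µg/mL of Cbir flagellin, a bacterial flagellum protein, for the last 4 h or were left unstimulated. Each of the 8 groups had 3 arrays, each with RNA pooled from 3 wells. The ages of the mice are not given in the sources used here. The cells of each mouse were split between the conditions, but the labels do not say which arrays share a mouse, so p-values describe how these arrays scatter.

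IL-6, LIF and oncostatin M are secreted proteins that signal through the shared receptor chain gp130, the product of Il6st. IL-6 first binds its own receptor chain, encoded by Il6ra, which is found on macrophages, some other leukocytes and hepatocytes, and the pair then recruits gp130. Oncostatin M uses gp130 together with the chain encoded by Osmr, and LIF uses gp130 together with the chain encoded by Lifr. Janus kinases bound to gp130 activate the transcription factor STAT3, and SOCS3, which STAT3 induces, binds gp130 and dampens the signal. In macrophages Il6 is a classical target of NF-kB and C/EBP factors after bacterial stimuli.

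Values are log2 values per probe set as the authors deposited them, so a difference of 1 is a doubling of signal, and no probe set's level is set against another's. The medians of the 24 arrays lay between 6.548 and 6.639 and their lower quartiles between 5.29 and 5.42. No detection calls came with the values, so a group mean below the lower quartile is treated as not clearly above background. A fold against such a group is given only as a lower bound, with each of its arrays raised to that array's lower quartile, and fitted log2 differences that involve such groups are differences of the deposited values, not measured sizes. The 8 macrophage markers averaged 11.57 to 12.33 on the 24 arrays, with Csf1r, the receptor for macrophage colony-stimulating factor, at 13.48 to 13.97. The 7 neutrophil markers averaged 11.11 to 12.87, with the granule gene Ngp at 12.59 to 14.01. The means of the B cell, T and NK cell, dendritic cell, mast cell and endothelial lists lay between 5.47 and 6.72. The probe set of Il10 gave 6.36 to 8.70, highest on B6 unstimulated arrays 2 and 3. Its position relative to the disruption in these mice was not analysed here.

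Il6 is encoded on chromosome 5. Its promoter window is shown because Il6 varied most of the 13 probe sets, and those of Lif and Osmr because Lif 1421207_at and Osmr 1418674_at and 1418675_at were also highest on the array where Il6 was highest, which Lif 1450160_at and Osmr 1459217_at were not. The windows run from 250 bases before to 50 bases after the start site in RefSeq (GRCm38.p6), at chr5:30012864-30013163 on the plus strand for Il6, chr11:4257318-4257617 on the plus strand for Lif and chr15:6874264-6874563 on the minus strand for Osmr. Of the 6 genes 5 matched an entry in the promoter table. Capitals mark matches, on either strand, to 5 searched motifs: GGNNTTTCC for NF-kB, TGANTCA for AP-1, TTGNGCAA for C/EBP, ACGTCA for the core of the cyclic AMP response element and TTCNNNGAA for STAT factors.

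Il6: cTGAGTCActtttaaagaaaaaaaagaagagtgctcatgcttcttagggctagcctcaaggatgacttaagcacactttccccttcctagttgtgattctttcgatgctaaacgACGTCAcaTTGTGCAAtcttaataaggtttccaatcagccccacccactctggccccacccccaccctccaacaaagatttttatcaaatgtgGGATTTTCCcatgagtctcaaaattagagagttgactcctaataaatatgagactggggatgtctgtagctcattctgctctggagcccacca
Lif: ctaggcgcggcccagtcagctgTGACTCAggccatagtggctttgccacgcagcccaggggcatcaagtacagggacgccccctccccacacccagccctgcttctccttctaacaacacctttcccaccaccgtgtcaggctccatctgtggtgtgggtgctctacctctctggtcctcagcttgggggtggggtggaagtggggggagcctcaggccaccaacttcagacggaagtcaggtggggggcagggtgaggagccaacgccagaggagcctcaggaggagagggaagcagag
Osmr: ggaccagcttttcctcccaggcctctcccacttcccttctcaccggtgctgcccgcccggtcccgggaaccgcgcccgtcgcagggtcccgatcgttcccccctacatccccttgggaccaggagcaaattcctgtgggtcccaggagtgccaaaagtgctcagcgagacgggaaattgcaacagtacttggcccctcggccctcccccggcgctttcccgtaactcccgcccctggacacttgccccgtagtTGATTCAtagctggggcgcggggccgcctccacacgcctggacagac

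The Il6 window held 4 of the 5 motifs, each once and without overlap, with first bases at -249 (AP-1), -136 (the response element core), -128 (C/EBP) and -43 (NF-kB) relative to the start site. Of 32851 promoter windows of this length 5.82% held the NF-kB motif, 7.81% that of AP-1, 2.94% that of C/EBP, 7.51% the response element core and 8.30% the STAT motif. The Lif window held 1 AP-1 match at -228 and the Osmr window 1 AP-1 match at 4. The windows of Il6ra and Il6st held none of the 5.

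Some arrays stood apart from others with their label. Il6, Socs3 and Nfkbiz, which bacterial stimuli induce in macrophages, were highest on arrays 2 and 3 labelled unstimulated in C3Bir and B6, and not on arrays labelled flagellin, so conditions are named below as the labels give them.

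The comparison of conditions within a strain addressed the response to flagellin. In B6, Il6 was lower on the arrays labelled flagellin, and Il6ra and Il6st were higher. Of the 13 probe sets 5 were called in B6 (limma, adjusted p under 0.05), 2 higher and 3 lower, which is 38.5% where 17.2% of all probe sets were called (9.31% higher and 7.94% lower). In CB-R1, C3Bir and BC-R3 0 of 13 were called, and 0% of all probe sets, with 1, 2 and 0 members at an unadjusted p under 0.05 in limma. B6 and C3Bir unstimulated arrays 2 and 3 are the 4 arrays with the highest Il6. A fit without them keeps 1 array in each of these groups, so a call lost there can come from the fewer arrays. The loss for Il6 also follows from how the arrays were chosen. Without these arrays the differences in B6 were smaller for Il6, Il6ra 1452416_at, Il6st 1452843_at and Osmr 1418674_at. That for Osmr 1459217_at was not smaller, as given below with each gene. In a limma fit of the 6 B6 arrays alone 0 of all probe sets were called, with 8 members and 9782 probe sets at an unadjusted p under 0.05.

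**Figure D1:**
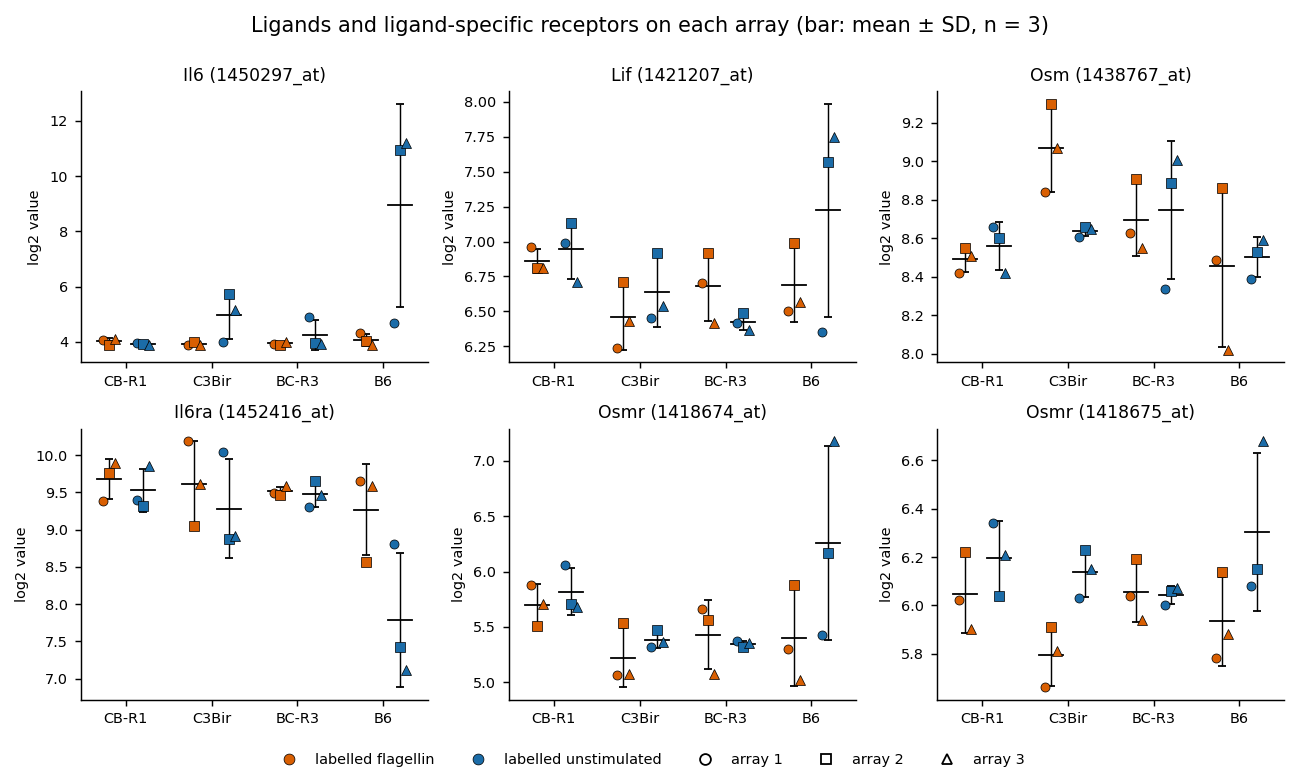
Log2 values (y axis) of 6 probe sets on each array in the 4 strains (x axis); orange points are arrays labelled flagellin, blue points arrays labelled unstimulated, symbols give the array number, and bars show mean ± SD (n = 3). Il6 stands at 10.93 and 11.20 on B6 unstimulated arrays 2 and 3 and below 6 on the other 22 arrays, and Il6ra is lowest on the same arrays.

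Il6, the gene of interleukin 6, gave 4.31, 4.03 and 3.88 on the B6 flagellin arrays, against 4.69, 10.93 and 11.20 on the B6 unstimulated arrays. The flagellin values all lay below the unstimulated ones, but 2 arrays labelled unstimulated made up the difference. The flagellin mean of 4.07 lay below the lower quartile of the arrays, so the signal was at least 12.2-fold lower than the unstimulated mean of 8.94 (limma adjusted p = 0.00507). The fit shares a single spread over the 8 groups, while the SD of Il6 was 3.68 in B6 unstimulated and 0.22 in B6 flagellin. This p-value therefore does not carry the full scatter of the B6 unstimulated arrays. Without the 4 high arrays both groups lay below the lower quartile, which follows from leaving out the arrays with the highest Il6.

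In C3Bir, Il6 gave 3.87, 4.01 and 3.89 on the flagellin arrays, against 4.01, 5.72 and 5.17 on the unstimulated arrays. Arrays 2 and 3 again stood above the rest, and the difference did not pass (limma adjusted p = 0.812). In BC-R3 the values were 3.94, 3.89 and 4.00 with flagellin, against 4.89, 3.96 and 3.91 without. There array 1 was the highest of the unstimulated arrays. In CB-R1 they were 4.07, 3.88 and 4.12 with flagellin, against 3.97, 3.94 and 3.89 without, all below the lower quartile of the arrays. Over the study Il6 lay below the lower quartile on 21 of 24 arrays, and none of the 12 arrays labelled flagellin lay above it.

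By group mean, Il6 was highest in B6 unstimulated at 8.94 ± 3.68 (SD, n = 3), followed by C3Bir unstimulated at 4.97 ± 0.87. The means of the 7 groups other than B6 unstimulated, down to C3Bir flagellin at 3.92 ± 0.07, lay below the lower quartile, so no order is read among them. The genes whose values over the 24 arrays were most like those of Il6 were Itgb8, an integrin subunit (Pearson r = 0.987), Il15ra, a receptor chain for interleukin 15 (0.985), and Nos2, the inducible nitric oxide synthase (0.975). These are descriptions that share the same high arrays. Over the 20 arrays without the 4 high ones the same genes had r of 0.736, 0.815 and 0.258. All Il6 values on those 20 arrays lay below the lower quartile, so no likeness is read from these r.

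Lif, the gene of leukaemia inhibitory factor, had 2 probe sets that differed in how far they varied. The brighter one (1421207_at) gave 6.50, 6.99 and 6.57 on B6 flagellin arrays, against 6.35, 7.57 and 7.75 on B6 unstimulated arrays. The groups overlapped, because unstimulated array 1 lay below all 3 flagellin arrays. The difference was -0.54 ± 0.25 and did not pass (limma adjusted p = 0.131). On the 22 arrays other than B6 unstimulated 2 and 3 this probe set lay between 6.24 and 7.13. The dimmer one (1450160_at) ranged only from 5.38 to 5.95 over the 24 arrays. In CB-R1 it gave 5.95, 5.74 and 5.72 with flagellin, against 5.57, 5.38 and 5.54 without, without overlap but also without a call (0.31 ± 0.09, limma adjusted p = 1).

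By group mean the brighter Lif probe set ran from 7.23 ± 0.76 in B6 unstimulated to 6.43 ± 0.06 in BC-R3 unstimulated (SD, n = 3), and no step between neighbouring groups exceeded the larger SD. The genes most like it over 24 arrays were Col4a1, a basement membrane collagen, Tead1, a transcription factor of the Hippo pathway, and Tgfb2, a transforming growth factor (r = 0.915, 0.909 and 0.897, and 0.824, 0.837 and 0.818 over the 20 arrays).

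Osm, the gene of oncostatin M, lies next to Lif on chromosome 11 with 0 genes between them in the RefSeq order, but it did not share the high B6 arrays. It gave 8.49, 8.86 and 8.02 on B6 flagellin arrays, against 8.39, 8.53 and 8.59 on B6 unstimulated arrays. The groups overlapped, and the unstimulated values lay inside the flagellin range. In C3Bir it gave 8.84, 9.30 and 9.07 with flagellin, against 8.61, 8.66 and 8.65 without. All 3 flagellin arrays lay above the others there, but the difference of 0.43 ± 0.17 did not pass over all probe sets (limma adjusted p = 0.648). In BC-R3 Osm gave 8.63, 8.91 and 8.55 with flagellin, against 8.34, 8.89 and 9.01 without, and in CB-R1 8.42, 8.55 and 8.51 with flagellin, against 8.66, 8.60 and 8.42 without. Both pairs overlapped.

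Group means of Osm ran from 9.07 ± 0.23 in C3Bir flagellin to 8.45 ± 0.42 in B6 flagellin (SD, n = 3), with no step between neighbours larger than the larger SD. Nfil3, a basic leucine zipper factor, was the gene most like it over 24 arrays (r = 0.869), followed by Smim3 (0.817) and A930005H10Rik (0.783).

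**Figure D2:**
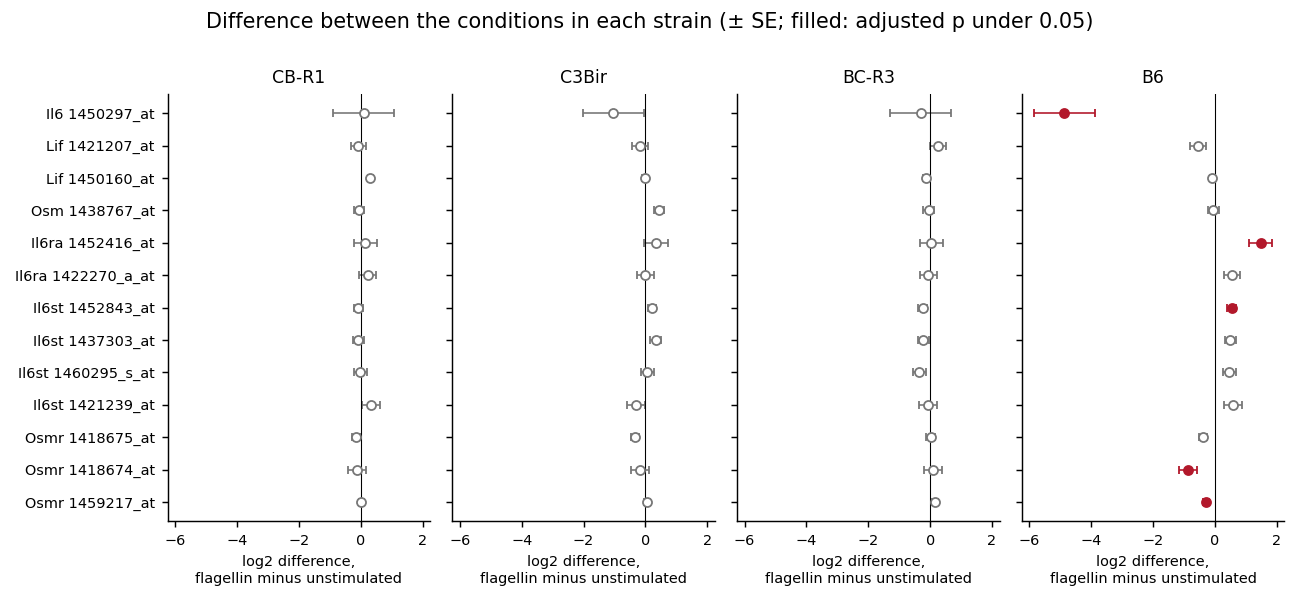
Log2 difference between flagellin and unstimulated arrays (x axis, ± SE) for the 13 probe sets (y axis) in each strain; filled red points passed an adjusted p of 0.05 in limma. Filled points appear only in the B6 panel, where Il6ra 1452416_at stands at 1.48; the Il6 point farthest to the left sets B6 unstimulated arrays against values below the lower quartile.

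Il6ra, the gene of the IL-6-binding receptor chain, moved opposite to Il6 in B6. Its brighter probe set (1452416_at) gave 9.66, 8.57 and 9.58 on B6 flagellin arrays, against 8.81, 7.43 and 7.11 on B6 unstimulated arrays. Unstimulated arrays 2 and 3 were the lowest 2 of all 24, and the groups overlapped through array 1. The difference was 1.48 ± 0.38, a 2.80-fold higher signal (limma adjusted p = 0.0138), and 0.46 ± 0.38 without the 4 high arrays (limma adjusted p = 0.831). The second probe set (1422270_a_at) gave 8.80, 7.90 and 8.78 with flagellin, against 8.03, 7.79 and 8.01 without, and did not pass (0.55 ± 0.27, limma adjusted p = 0.154).

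In C3Bir the brighter Il6ra probe set gave 10.19, 9.05 and 9.61 with flagellin, against 10.05, 8.88 and 8.91 without, with an overlap. In BC-R3 it gave 9.49, 9.47 and 9.58 with flagellin, against 9.31, 9.65 and 9.47 without. In CB-R1 it gave 9.38, 9.76 and 9.90 with flagellin, against 9.40, 9.32 and 9.86 without. The differences in these strains were 0.34, 0.04 and 0.15, all smaller than their SE of 0.38. By group mean the probe set lay between 9.27 ± 0.61 and 9.68 ± 0.27 in 7 groups, with no step beyond the spread, and at 7.78 ± 0.90 in B6 unstimulated, a gap of 1.48 (SD, n = 3). Zfp36l1, an RNA-binding protein that promotes decay of AU-rich messengers, was the gene most like it (r = 0.967 over 24 arrays, 0.870 over 20), followed by Ccdc71 (0.954, 0.880) and Hs2st1 (0.951, 0.797).

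Il6st, the gene of gp130, had 4 probe sets. The one with the highest mean (1452843_at) gave 8.92, 8.95 and 8.85 on B6 flagellin arrays, against 8.66, 8.14 and 8.29 on B6 unstimulated arrays. The groups did not overlap, and the difference of 0.54 ± 0.14, 1.46-fold, passed (limma adjusted p = 0.0137). It was 0.25 ± 0.18 without the 4 high arrays and did not pass (limma adjusted p = 0.791). The other 3 probe sets also stood higher with flagellin in B6, by 0.50 (1437303_at), 0.47 (1460295_s_at) and 0.59 (1421239_at), and did not pass. In BC-R3 the probe set of highest mean gave 8.79, 8.77 and 8.71 with flagellin, against 8.56, 9.22 and 9.21 without. Arrays 2 and 3 labelled unstimulated were the highest of all 24 there, and lowest in B6. The genes most like it over 24 arrays were Mindy2, Esyt1 and Pkib (r = 0.930, 0.928 and 0.926, and 0.824, 0.805 and 0.832 over the 20 arrays).

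Osmr, the gene of the oncostatin M-specific chain, had 3 probe sets, all low. The most variable one (1418674_at) gave 5.30, 5.88 and 5.02 on B6 flagellin arrays, against 5.43, 6.17 and 7.18 on B6 unstimulated arrays. The groups overlapped, and array 3 labelled unstimulated was the highest of all 24. The difference of -0.86 ± 0.29 passed (limma adjusted p = 0.0452) and was lost in 4 of 6 fits that left out 1 of the arrays, and without the 4 high arrays it was -0.03 ± 0.28 (limma adjusted p = 0.987). The brightest probe set (1418675_at) gave 5.78, 6.14 and 5.88 with flagellin in B6, against 6.08, 6.15 and 6.68 without, and did not pass (-0.37 ± 0.13, limma adjusted p = 0.0560). The dimmest (1459217_at), below the lower quartile on 15 of 24 arrays, gave 4.89, 5.23 and 5.31 with flagellin in B6, against 5.46, 5.36 and 5.48 without. The deposited values differed by -0.29 ± 0.09 (limma adjusted p = 0.0364), but the flagellin mean lay below the lower quartile and the bound was 1.07-fold. When the 4 high arrays were left out the difference was -0.32 ± 0.14, no smaller, and was not called on the fewer arrays (limma adjusted p = 0.735).

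By group mean the brightest Osmr probe set lay between 6.30 ± 0.33 in B6 unstimulated and 5.79 ± 0.12 in C3Bir flagellin (SD, n = 3), with no step between neighbours larger than the larger SD. The genes most like it were Chat, Retn and Gli3 (r = 0.799, 0.791 and 0.790 over 24 arrays, and 0.675, 0.705 and 0.639 over 20).

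**Figure D3:**
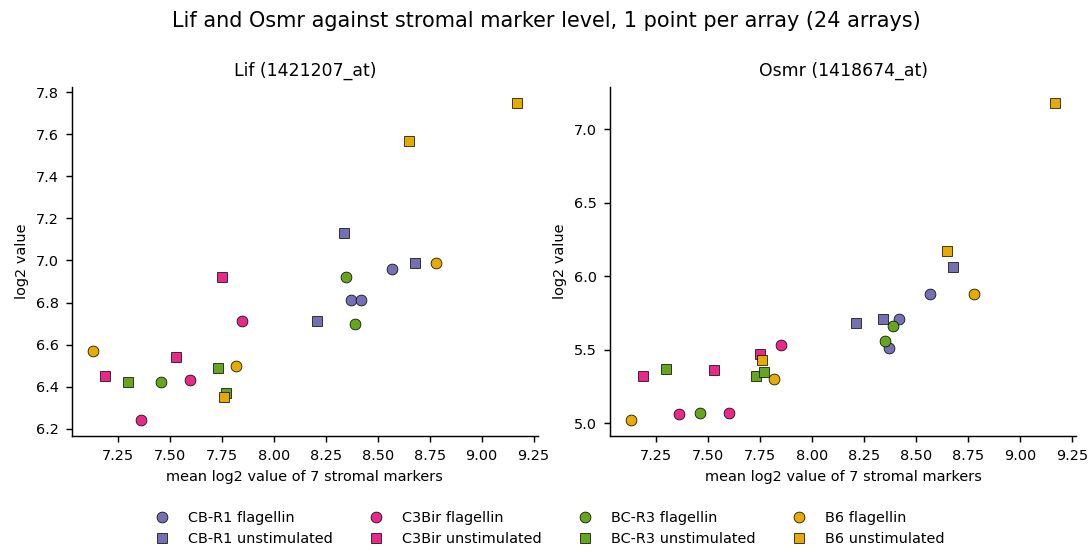
Log2 value of Lif 1421207_at (left) and Osmr 1418674_at (right) on each of 24 arrays (y axis) against the mean log2 value of 7 stromal markers on the same array (x axis). Colours are strains, circles arrays labelled flagellin and squares arrays labelled unstimulated. The upper right point in both panels is B6 unstimulated array 3, and the CB-R1 arrays lie together at a stromal mean of 8.21 to 8.68.

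Markers of stromal cells moved with Lif 1421207_at and Osmr 1418674_at. The mean of 7 stromal markers, among them the collagen genes Col1a1, Col1a2 and Col3a1, was 7.82, 8.78 and 7.13 on B6 flagellin arrays, against 7.76, 8.65 and 9.17 on B6 unstimulated arrays. The order of these 6 arrays was close to that of Osmr 1418674_at given above, with array 2 the highest of the flagellin arrays in both and array 3 the highest of the unstimulated arrays. In CB-R1 the stromal mean was 8.37 to 8.57 with flagellin and 8.21 to 8.68 without, against 7.36 to 7.85 with flagellin and 7.19 to 7.75 without in C3Bir. Osmr 1418674_at gave 5.51 to 5.88 and 5.68 to 6.06 in CB-R1, against 5.06 to 5.53 and 5.32 to 5.47 in C3Bir. Lif 1421207_at gave 6.81 to 6.96 and 6.71 to 7.13 in CB-R1, against 6.24 to 6.71 and 6.45 to 6.92 in C3Bir. On unstimulated arrays Lif 1450160_at averaged 5.50 in CB-R1 and 5.64 in C3Bir, and Osmr 1459217_at 5.34 in both. The brightest Osmr probe set (1418675_at) averaged 6.20 in CB-R1 and 6.14 in C3Bir on unstimulated arrays, and 6.05 and 5.79 with flagellin. In B6, 0 of the 7 stromal markers were called between the conditions, with a difference of -1.15 ± 0.50 for the matrix protein gene Postn (limma adjusted p = 0.113). Lum was below the lower quartile on 7 arrays and the other 6 markers on 0. The part of stromal cells in the Lif and Osmr values was not tested, and in RNA of a whole culture more cells of a type and more RNA per cell cannot be told apart.

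The strain comparisons asked how macrophages of the susceptible strain and of the congenic strains differ. A single probe set of Il6st differed in each comparison between the genetic backgrounds. Il6st 1437303_at was higher on the C3Bir background (C3Bir and CB-R1) than on the B6 background (BC-R3 and B6) by 1.20 ± 0.09 on the log2 scale, 2.30-fold (limma adjusted p = 2.42e-09). It gave 8.96 to 9.58 (median 9.34) on the 12 arrays of the C3Bir background, against 7.40 to 8.59 (median 8.17) on the 12 arrays of the B6 background. The lowest array of the C3Bir background lay above the highest of the B6 background. It was 1 of 13 members called there, where 22.4% of all probe sets were called. Neutrophil markers moved the same way: 7 of 7 were higher on the C3Bir background, with a median of 0.91 against 0.01 over all probe sets. Their mean was 12.65 to 12.87 in CB-R1 and 11.65 to 12.56 in C3Bir, against 11.11 to 12.01 in BC-R3 and 11.15 to 12.04 in B6. The part of neutrophils in the Il6st value was not tested.

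Array by array, Il6st 1437303_at gave 9.34, 9.28 and 9.37 in CB-R1 flagellin and 9.34, 9.42 and 9.53 in C3Bir flagellin, against 8.03, 8.16 and 7.86 in BC-R3 flagellin and 8.30, 8.59 and 8.18 in B6 flagellin. Unstimulated arrays gave 9.41, 9.58 and 9.24 in CB-R1 and 9.34, 8.96 and 9.0 in C3Bir, against 7.85, 8.55 and 8.34 in BC-R3 and 8.22, 7.96 and 7.40 in B6. The congenic strains followed their background and not their Cdcs1 allele in both conditions.

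The parental difference, C3Bir against B6, was 1.07 ± 0.18 with flagellin (limma adjusted p = 5.88e-04) and 1.24 ± 0.18 without (limma adjusted p = 1.05e-04). CB-R1 against B6 gave 0.97 ± 0.18 (limma adjusted p = 0.00131) and 1.55 ± 0.18 (limma adjusted p = 4.80e-06), and C3Bir against BC-R3 1.41 ± 0.18 (limma adjusted p = 2.53e-05) and 0.85 ± 0.18 (limma adjusted p = 0.00473). Between strains of 1 background (BC-R3 and B6, or CB-R1 and C3Bir) it did not pass in either condition. The Cdcs1 allele difference, C3Bir allele (C3Bir and BC-R3) against B6 allele (CB-R1 and B6), was -0.04 ± 0.09.

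The other 3 probe sets of Il6st did not share this pattern. Their background differences were 0.00 ± 0.07 for 1452843_at, -0.05 ± 0.10 for 1460295_s_at and -0.07 ± 0.15 for 1421239_at. Over the 24 arrays 1437303_at correlated with them at r of 0.29, 0.10 and -0.01, while those 3 correlated with each other at 0.55 to 0.83. So the strain difference held for 1 of the 4 probe sets that report this gene, and which of them follows the level of gp130 messenger is not settled by these data. Sequence differences between the strains under the probes were not tested.

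**Figure D4:**
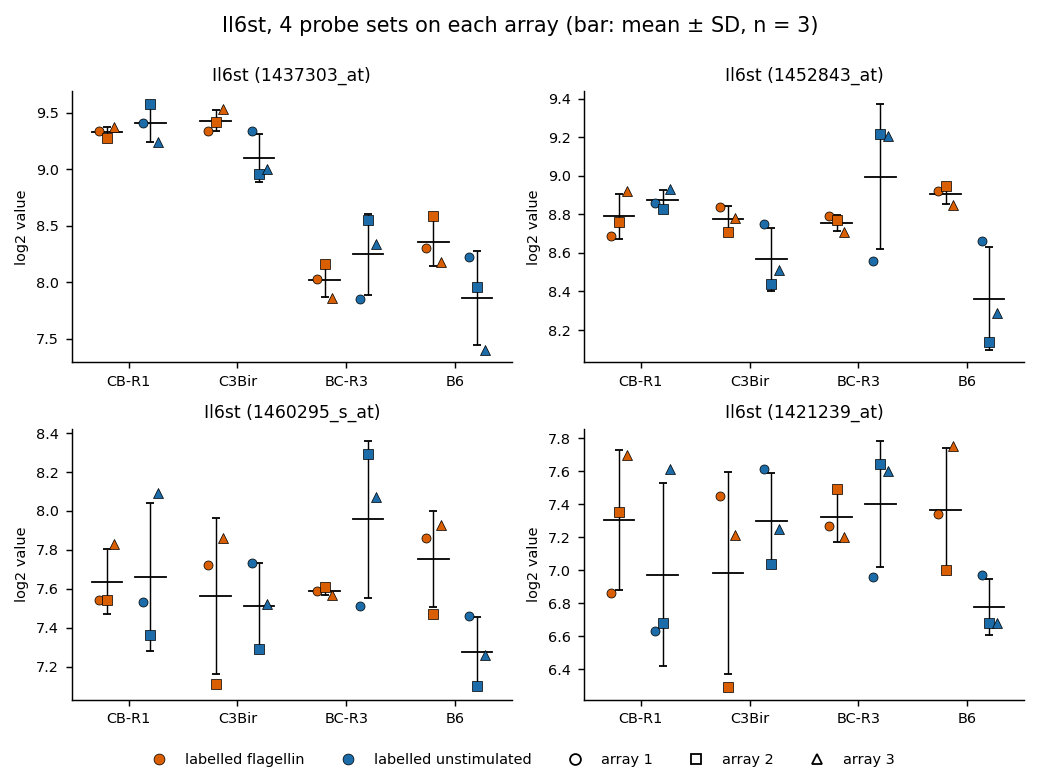
Log2 values (y axis) of the 4 Il6st probe sets on each array in the 4 strains (x axis), with colours for the condition, symbols for the array number and bars for mean ± SD (n = 3). In the 1437303_at panel CB-R1 and C3Bir lie at 8.96 and above and BC-R3 and B6 at 8.59 and below; the other 3 panels show no such split.

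The other strain calls lay between B6 and the other strains. On the arrays labelled flagellin, Osm was higher in C3Bir than in B6 by 0.61 ± 0.17, 1.53-fold (limma adjusted p = 0.0406), from the values given above. The groups overlapped, and the call was lost in 4 of 6 fits that left out 1 of these arrays, with an adjusted p of up to 0.199 in limma. With Il6st this made 2 of 13 members called, where 5.68% of all probe sets were called. CB-R1 against C3Bir differed by -0.57 ± 0.17 for Osm (limma adjusted p = 0.288). Over both conditions Osm gave 8.34 to 9.30 on the 12 arrays with the C3Bir allele of Cdcs1, against 8.02 to 8.86 on the 12 arrays with the B6 allele, a difference of 0.28 ± 0.09 that did not pass (limma adjusted p = 0.0986). For the Cdcs1 allele 0 of 13 members were called in limma (4 had an unadjusted p below 0.05), and 1.32% of all probe sets. Of the 7 stromal markers 1, Col3a1, was called lower with the C3Bir allele (-1.01 ± 0.22, limma adjusted p = 0.0318), and the median of the 7 was -0.75. Lif 1421207_at and Osmr 1418674_at stood at -0.38 ± 0.12 and -0.45 ± 0.14 for this allele and did not pass (limma adjusted p = 0.120 and 0.114), and the part of stromal cells in these values was not tested. On the flagellin arrays 0 members were called in BC-R3 against B6 (0.0222% of all probe sets) and in CB-R1 against C3Bir (0.0555%), with 0 and 1 at an unadjusted p under 0.05 in limma. Il6st 1437303_at was the 1 member called there in CB-R1 against B6 (7.05% of all) and in C3Bir against BC-R3 (4.77% of all).

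On the arrays labelled unstimulated, Il6 was lower and Il6ra higher in each of the other strains than in B6. These comparisons share the 3 B6 arrays. Il6 averaged 3.94 in CB-R1, 4.97 in C3Bir and 4.25 in BC-R3, all below the lower quartile, against 8.94 in B6, and so was at least 11.9-fold, 10.8-fold and 12.1-fold lower (limma adjusted p = 8.81e-04, 0.0106 and 0.00270). Il6ra 1452416_at stood at 1.74, 1.50 and 1.69, each ± 0.38 (limma adjusted p = 0.00189, 0.0118 and 0.00385), which are 3.35-fold, 2.82-fold and 3.23-fold. For Il6 the arrays of C3Bir (4.01 to 5.72) and BC-R3 (3.91 to 4.89) overlapped with B6, where array 1 gave 4.69. Those of CB-R1 (3.89 to 3.97) did not. The bounds for Il6 thus rest on B6 arrays 2 and 3, and the p-values share the limit on spread given for Il6 above. For Il6ra the arrays of each strain lay above those of B6 without overlap. In C3Bir against B6 both calls were lost in 3 of 6 fits that left out 1 array, with limma adjusted p of up to 0.0924 for Il6 and 0.0936 for Il6ra. Leaving out the 4 high arrays keeps 1 unstimulated array in B6 and 1 in C3Bir. Il6ra then stood at 0.72 ± 0.38, 1.24 ± 0.47 and 0.67 ± 0.38 in CB-R1, C3Bir and BC-R3 against B6, smaller than with all arrays.

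The counts of members called were 4 in CB-R1, 4 in C3Bir and 8 in BC-R3 against B6, where 25.1%, 13.4% and 26.5% of all probe sets were called. For BC-R3 these were 15.3% higher and 11.2% lower. In BC-R3 the 4 higher ones were both Il6ra probe sets and Il6st 1452843_at and 1460295_s_at, and the 4 lower ones were Il6, Lif 1421207_at and Osmr 1418674_at and 1459217_at. Of the 7 stromal markers 3 were called lower in the same comparison, with a median of -0.87 over the 7, against -0.03 over all probe sets: Pdgfrb, a growth factor receptor, at -0.86 ± 0.19, the matrix gene Lum at -0.40 ± 0.12 and Postn at -1.54 ± 0.50 (limma adjusted p = 0.00321, 0.0160 and 0.0302). The part of stromal cells in these Lif and Osmr values was not tested. Among the 8 macrophage markers Itgam (0.95 ± 0.32), Csf1r (0.30 ± 0.10) and Cd68 (0.23 ± 0.06) were called higher there (limma adjusted p = 0.0351, 0.0299 and 0.00792). The others were not called, and the part of macrophage content in the Il6ra and Il6st values was not tested. Without the 4 high arrays the counts were 1, 1 and 0, and the 1 was Il6st 1437303_at both times. Among strains other than B6, 0 members were called in CB-R1 against C3Bir (0.586% of all) and 1, Il6st 1437303_at, in C3Bir against BC-R3 (6.64% of all).

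Il6ra lies on chromosome 3, the chromosome of Cdcs1, and the sources used here do not give the ends of the exchanged segments. The nearest genes in the RefSeq order with a called parental difference of at least 0.8 with flagellin (limma adjusted p under 0.005) were Fcrl1 before Il6ra, with 78 genes between, and Pi4kb after it, with 87 between. On flagellin arrays Fcrl1 averaged 6.48 in CB-R1 and 6.37 in C3Bir, against 7.87 in BC-R3 and 7.80 in B6. Pi4kb averaged 9.29 in CB-R1 and 9.20 in C3Bir, against 8.32 in BC-R3 and 8.32 in B6. In both congenic strains these means lay near those of the parent that gave the background, a difference that was not tested. Il6ra itself did not pass by background (0.52 ± 0.19, limma adjusted p = 0.0567) or by Cdcs1 allele (0.41 ± 0.19, limma adjusted p = 0.293).

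Whether the flagellin change differed between strains was tested on the difference itself. For BC-R3 against B6 3 of 13 members were called, where 8.05% of all probe sets were (3.31% higher and 4.74% lower). The change of Il6 was called higher in BC-R3 (limma adjusted p = 0.0497), which was a smaller fall and not a rise. Il6 averaged 3.94 with flagellin against 4.25 without in BC-R3, and 4.07 against 8.94 in B6. No measured size is read, because 3 of the 4 group means lay below the lower quartile. The change of Osmr 1459217_at was higher by 0.45 ± 0.13 in the deposited values (limma adjusted p = 0.0422), also with 3 of 4 means below the lower quartile. The change of Il6st 1452843_at was lower by 0.79 ± 0.20 (limma adjusted p = 0.0268). When the 4 high arrays were left out 0 members were called. The difference was then -0.50 ± 0.22 for Il6st 1452843_at and 0.48 ± 0.18, no smaller, for Osmr 1459217_at (limma adjusted p = 0.512 and 0.484). For C3Bir against B6 and CB-R1 against C3Bir 0 members were called (0% of all probe sets for both), with 4 and 1 at an unadjusted p under 0.05 in limma.

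The other genes of the pathway were taken from 5 lists, with 1 probe set for each gene. Their counts in B6 stand against 17.2% of all probe sets called, 9.31% higher and 7.94% lower, and a share near these is no result about a list. Of 15 measured signalling genes and inhibitors 6 fell and 2 rose on the arrays labelled flagellin, with a median of -0.33 against -0.03 over all probe sets. Socs1, an inhibitor of Janus kinases, fell by 1.85 ± 0.33 (limma adjusted p = 0.00325). Jak2, a kinase bound to gp130, fell by 1.35 ± 0.36 (limma adjusted p = 0.0159), and Stat5a by 1.12 ± 0.31 (limma adjusted p = 0.0191). Stat3 fell by 0.33 ± 0.10 (limma adjusted p = 0.0289).

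Of 9 regulators of Il6 transcription and messenger stability, 2 fell and 0 rose in B6 (median -0.31), Arid5a, which stabilises Il6 messenger, by 0.94 ± 0.16 and Rela, an NF-kB subunit, by 0.37 ± 0.11 (limma adjusted p = 0.00295 and 0.0290). Of 12 STAT3-responsive genes 2 fell and 1 rose (median -0.10). The counts of these 2 lists lie near the share of all probe sets called. Saa3, an acute-phase protein gene, fell by 2.32 ± 0.72 and Fos rose by 0.90 ± 0.26 (limma adjusted p = 0.0317 and 0.0238). Of 4 genes of receptor shedding 2 fell and 1 rose. Those that fell were Rhbdf2, at -0.65 ± 0.18, and Rhbdf1, at -0.51 ± 0.15 (limma adjusted p = 0.0174 and 0.0269). The 1 that rose was Adam10, a protease that can release the IL-6 receptor from the cell surface, at 0.60 ± 0.16 (limma adjusted p = 0.0172). Of 7 other ligands and receptors of the family 1 fell, Ctf1, the gene of cardiotrophin, by 0.34 ± 0.08 (limma adjusted p = 0.00884). Lifr, the LIF receptor chain, ranged from 5.72 to 6.42 over all arrays, and Jak1 from 10.94 to 11.39. Without the 4 high arrays 0 genes of any of the 5 lists were called in B6, as 0 of all probe sets were.

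Socs3, the inhibitor that binds gp130, varied with Il6 but reached high values on more arrays. It gave 10.19, 8.86 and 8.69 on B6 flagellin arrays, against 10.15, 11.61 and 11.58 on B6 unstimulated arrays. In C3Bir it gave 7.88, 7.78 and 7.68 with flagellin, against 6.97, 10.70 and 10.43 without, and in BC-R3 9.13, 8.68 and 9.63 with flagellin, against 10.39, 6.65 and 6.49 without. Arrays 2 and 3 in C3Bir and array 1 in BC-R3, all labelled unstimulated, were thus the high ones of their groups, as they were for Il6. In CB-R1 it gave 7.67, 7.18 and 7.98 with flagellin, against 6.91, 6.42 and 7.17 without. The flagellin arrays there lay above the unstimulated ones without overlap, in a comparison where 0 of all probe sets were called.

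**Figure D5:**
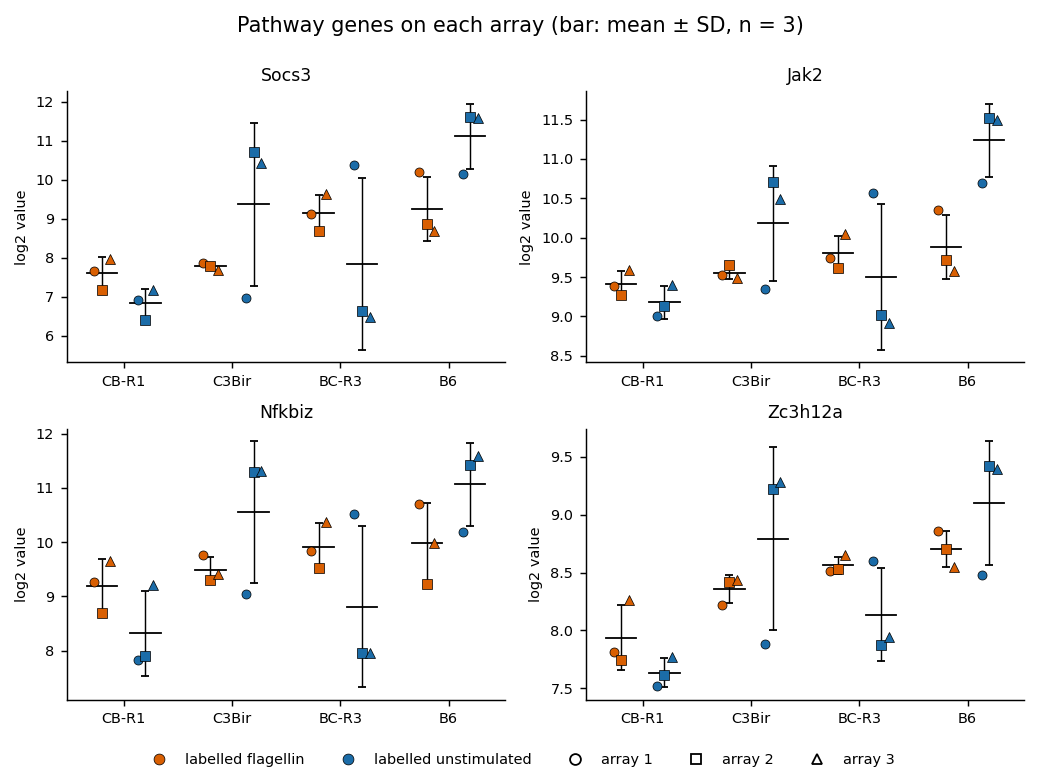
Log2 values (y axis) of Socs3, Jak2, Nfkbiz and Zc3h12a on each array in the 4 strains (x axis), with colours for the condition, symbols for the array number and bars for mean ± SD (n = 3). In the Socs3 panel unstimulated arrays 2 and 3 stand high in B6 and C3Bir and unstimulated array 1 stands high in BC-R3, while the CB-R1 arrays lie between 6.42 and 7.98.

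Nfkbiz, a cofactor of NF-kB needed for Il6 induction, and Zc3h12a, the ribonuclease that degrades Il6 messenger, followed the same arrays. Nfkbiz gave 11.42 and 11.59 on B6 unstimulated arrays 2 and 3, 11.30 and 11.32 on those of C3Bir and 10.52 on BC-R3 unstimulated array 1. Zc3h12a gave 9.42 and 9.40, 9.22 and 9.28, and 8.60 on these arrays. The 8.60 lay below BC-R3 flagellin array 3 at 8.65 and B6 flagellin arrays 1 and 2 at 8.86 and 8.70. In BC-R3 Nfkbiz gave 9.84, 9.53 and 10.38 with flagellin, against 7.95 and 7.95 on unstimulated arrays 2 and 3. In CB-R1 Nfkbiz gave 9.26, 8.69 and 9.65 with flagellin, against 7.83, 7.91 and 9.22 without, with an overlap. On the C3Bir arrays named here Il6 was only 5.72 and 5.17.

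By background, over both conditions, 3 of 15 signalling genes were higher on the C3Bir background and 3 lower (median -0.01, against 0.01 over all probe sets), where 22.4% of all probe sets were called in either direction. Gab1, an adaptor that links gp130 to other kinases, was higher by 0.81 ± 0.08 and passed (limma adjusted p = 1.71e-07), and Socs3 was lower by 1.44 ± 0.43 (limma adjusted p = 0.0188). Il11, another gp130 ligand, was higher by 0.52 ± 0.08 (limma adjusted p = 6.34e-05). Adam17, the protease that sheds the IL-6 receptor, was lower by 0.41 ± 0.07 (limma adjusted p = 1.22e-04), while Adam10, Rhbdf1 and Rhbdf2 were not called. For Adam17 CB-R1 against B6 was called in both conditions (-0.56 ± 0.14 with flagellin, -0.79 ± 0.14 without). C3Bir against B6 was called in neither (-0.35 ± 0.14 and -0.14 ± 0.14). On unstimulated arrays Adam17 was also called lower in CB-R1 than in C3Bir, of the same background (-0.65 ± 0.14, limma adjusted p = 0.0389). Neutrophil markers were higher on this background, as given above. In the other lists 2 of 9 regulators of Il6 and 2 of 12 STAT3-responsive genes were lower and 0 higher, which is no more than the 22.4% of all probe sets. For the Cdcs1 allele 0 genes of the 5 lists were called in limma.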

How the data were processed

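RNA of bone marrow-derived macrophages was hybridised to 24 Affymetrix expression arrays, 3 in each of 8 groups. The authors deposited log2 values per probe set. The summarisation and normalization behind them are not given in the sources used here. Of 45037 probe sets 4 held no values. Probe sets were named from GEO's platform annotation, with 34945 carrying 1 symbol, 932 several and the rest none.

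The deposited log2 values were fitted without further scaling in limma 3.58.1 (R 4.3.3) on 8 group means, with 16 residual and 4.02 prior degrees of freedom. In total 19 contrasts were tested two-sided, with Benjamini-Hochberg adjustment over 45033 probe sets within each and calls at an adjusted p under 0.05. The fit takes the spread of a probe set as equal in the 8 groups. It was tested on simulated data drawn with such an equal spread and without arrays that stand apart. That test therefore does not cover the unequal spread seen here. No arrays were identical, and arrays of a group correlated at 0.987 to 0.998. The number of arrays limits the precision.

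The members, lists and tests were chosen with earlier results of these data known. All member probe sets are named, with up to 4 called genes of the largest difference per pathway list, the pathway genes named always (Socs3, Stat3, Jak1, Jak2, Lifr, Zc3h12a, Nfkbiz and Il10), the 3 genes most like each member, and marker genes whose values stand beside a result. Pathway and marker lists use the brightest probe set of a gene. Alternatives were median centring, quantile normalization, a low-value filter, 1 probe set per gene, another variance setting, the compared arrays alone, replicate blocks, each array left out in turn and, chosen after seeing the data, 2 exclusions of arrays that stand apart. Promoter windows came from RefSeq (GRCm38.p6).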

Additional observations from a re-analysis of the deposited data

Results flagged for a closer look

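The change between arrays labelled flagellin and arrays labelled unstimulated differed between BC-R3 and B6 for 3 member probe sets, by limma's test of the difference itself. The difference in change, BC-R3 minus B6, was 4.56 for Il6, 0.45 for Osmr 1459217_at and -0.79 for Il6st 1452843_at on the log2 scale. For Il6 and for this Osmr probe set 3 of the 4 group means lay below the lower quartile of the arrays, so these are differences of the deposited values and not measured sizes. None of the 3 was called without the 4 arrays with the highest Il6 (limma adjusted p = 0.757, 0.484 and 0.512), and the difference was -0.50 for Il6st and 0.48, no smaller, for Osmr. In 12 fits that each left out 1 array, the call for Il6 was lost in 10, that for Osmr in 7 and that for Il6st in 6. The highest adjusted p in those fits was 0.145 for Il6, 0.113 for Osmr and 0.0871 for Il6st. Osmr 1459217_at lay below the lower quartile of its array on 15 of 24 arrays, and Il6 on 21 of 24.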

How the results depend on the processing

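The higher level of Il6st 1437303_at on the C3Bir background kept its call in all 24 fits that left out 1 array (1.14 to 1.24) and in the 8 other settings that could give it. The counts of member probe sets called were less stable. With quantile normalization or a filter on low values the B6 flagellin count was 3 instead of 5, and that for the difference in change between BC-R3 and B6 was 1 instead of 3. The filter gave 2 for the background, against 1. Median centring gave 1 for C3Bir against B6 with flagellin, against 2.

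With 1 probe set per gene, which leaves out 1437303_at, counts were 4 for BC-R3, 2 for C3Bir against B6 unstimulated, 1 for C3Bir against B6 with flagellin, and 0 for CB-R1 against B6 with flagellin and for C3Bir against BC-R3 in either condition. In fits of the compared arrays alone, counts were 1 for BC-R3 and 1 for C3Bir against B6 unstimulated, 1 for C3Bir against B6 with flagellin, 0 for C3Bir against BC-R3 unstimulated, 0 for the difference in change between BC-R3 and B6, and 0 for B6 flagellin.

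Without the 4 high arrays, an exclusion chosen after seeing the data, counts were 0 for B6 flagellin, 0 for the difference in change between BC-R3 and B6, 0 for BC-R3, 1 for C3Bir and 1 for CB-R1 against B6 unstimulated, and 1 for C3Bir against B6 with flagellin. That fit keeps 1 array in B6 unstimulated and 1 in C3Bir unstimulated, so lost calls can come from the fewer arrays. In it Lif 1421207_at in BC-R3 against B6 unstimulated turned to 0.08 ± 0.21. Without array 1 labelled unstimulated in BC-R3, C3Bir and B6, also chosen after seeing the data, counts were 8 for B6, 2 for C3Bir and 1 for BC-R3 flagellin. They were 8, 2 and 2 for the difference in change between BC-R3 and B6, C3Bir and B6, and CB-R1 and C3Bir. They were 7 for CB-R1 against B6, 4 for C3Bir against BC-R3 and 2 for CB-R1 against C3Bir unstimulated, 3 for the background and 5 for the Cdcs1 allele.

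Leaving out 1 array at a time gave 1 to 7 for B6 flagellin, 3 to 11, 1 to 5 and 3 to 7 for BC-R3, C3Bir and CB-R1 against B6 unstimulated, 1 to 2 for C3Bir against B6 with flagellin, 1 to 2 for C3Bir against BC-R3 unstimulated, 1 to 3 for the background and 0 to 3 for the allele. It gave 0 to 8 and 0 to 3 for the difference in change of BC-R3 and C3Bir against B6. The lowest of these counts came without B6 unstimulated array 2 for B6 flagellin and the comparisons with B6 unstimulated, and the highest without BC-R3 unstimulated array 1 for BC-R3 against B6 and without B6 unstimulated array 1 for B6 flagellin, C3Bir and CB-R1 against B6 unstimulated, the background, the allele and both differences in change. The cause of these changes was not tested.

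With the replicate number as a block the background count was 2, against 1, and other counts moved by less than 1.5 times. The numbers were not taken to pair the arrays. Over 12 pairs of a flagellin and an unstimulated array with the same strain and number, the correlation of deviations ran from -0.44 to 0.50. It was above 0.1 in 8, and 8 correlated best with their own number. Among the latter were all pairs of C3Bir (r = 0.45, 0.29 and 0.33) and of CB-R1 (0.34, 0.22 and 0.50). Whether the numbers pair the arrays in these strains was not tested.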
